A study of Mus musculus with 4 samples.

Results

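The 8 enzymes described here carry farnesyl diphosphate through squalene and lanosterol to cholesterol, and their transcripts were measured in liver of wild-type mice and of mice lacking hormone-sensitive lipase (HSL), which hydrolyses stored acylglycerols and cholesteryl esters and is encoded by Lipe. Members were all probe sets annotated to Fdft1, Sqle, Lss, Cyp51, Msmo1, Nsdhl, Sc5d or Dhcr7, which gave 11 probe sets among the 12422 non-control probe sets of the array. All of the animals were female, fed, and killed at 8 months of age. They were of 2 genotypes, wild type and HSL-null with a general knockout of the gene, and of either genotype some ate a normal diet (ND), in which fat supplied 11% of the energy, and others a high-fat diet (FD), in which it supplied 58%, for 6 months. Both wild-type groups and the HSL-null ND group were each 1 pool of 6 livers, and the HSL-null FD group was 1 pool of 4. The strain was not given in the sources used here. Since 1 Affymetrix MG_U74Av2 array read each pool, there was no replicate and no test, and the words "higher" and "lower" compare these 4 pools only.

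Cholesterol is made in the endoplasmic reticulum from acetyl-CoA by way of mevalonate and farnesyl diphosphate. Squalene synthase commits carbon to sterols, oxygen is then added, the chain is folded into lanosterol, and demethylation and rearrangement of double bonds give cholesterol. Transcription of nearly the whole route is driven by SREBP-2, which is released from the endoplasmic reticulum when membrane sterol is low and binds sterol regulatory elements, usually beside sites for NF-Y or Sp1. Liver is a main site of this synthesis and also takes up, stores, secretes and degrades cholesterol.

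The values are MAS5 signals, the Affymetrix summary of a probe set on a linear scale, and as deposited the arrays had the same trimmed mean. Signals under a floor of 6.1 were raised to it before log2 was taken. The filter kept 4829 genes whose brightest probe set had a mean signal of at least 26.9 over the 4 arrays. All 11 probe sets of the 8 enzymes passed, and their lowest signal was 28.1, so no member value touched the floor. As a yardstick for measurement error, the log2 ratios of 2 probe sets of 1 gene differed with an SD of 0.298 per ratio over 687 genes, and with an SD of 0.43 for a difference between ratios. This SD leaves out any error shared by a whole array and any variation between animals, neither of which could be measured. In these bulk samples, fewer cells of a type and less RNA per cell cannot be told apart.

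Lipe, the targeted gene, had wild-type signals of 28.0 on ND and 34.0 on FD and HSL-null signals of 11.9 and 15.9. Both HSL-null pools were thus below both wild-type pools, at a mean signal under the filter. Whether its probes lie in the deleted stretch was not known, so this is a limited check of the labels. The median signal of an array was 25.2 to 28.3, and 24.1 to 26.0% of probe sets lay at or under the floor. All 8 hepatocyte markers of the marker list were kept, with albumin at 4680 to 6913. Poly-A spikes are bacterial RNAs that serve as labelling controls, and the 12 probe sets used here were those for Lys, Phe, Thr and Trp. They averaged (geometric mean) 1412 for the wild-type ND pool, 2179 for the wild-type FD pool, 1781 for the HSL-null ND pool and 1510 for the HSL-null FD pool. Their log2 ratios had the same sign as the medians of the 8 enzymes in each comparison below: 0.33 and -0.53 for HSL-null against wild type on ND and FD, and 0.63 and -0.24 for FD against ND in wild type and HSL-null. Their part in the results was not tested. The median over all kept genes is given beside each result. The 9 probe sets of the hybridisation spikes, added after labelling, had log2 ratios of -0.24 and 0.089 for genotype on ND and FD and of -0.64 and -0.32 for diet in wild type and HSL-null liver. Probe sets for 18S ribosomal RNA (3 of them) had 0.60 and 0.23 for genotype and -1.22 and -1.58 for diet. The ratio of 3' to 5' signal for Actb was highest in the wild-type FD pool, at 1.49, and lowest in the HSL-null FD pool, at 1.32, and for Gapdh it was 0.84 to 0.87. The part of these controls in the results was not tested either. The wild-type ND pool stood apart in exocrine pancreas markers (4 of 8 kept), whose summed signal was 680 there against 153 to 192 in the other 3. That pool enters the ND genotype, wild-type diet and difference results, but neither genotype on FD nor diet in HSL-null liver. The 2 wild-type arrays shared a solution lot and the 2 HSL-null arrays another, so in genotype comparisons lot and genotype cannot be told apart, while either diet comparison lay within 1 lot. The 4 arrays ran on 4 fluidics modules, so module cannot be told apart from genotype or diet.

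To show the regulatory sequence in front of genes that differed together, promoters were taken from RefSeq on GRCm38.p6, which held 6 of the 8 members. Fdft1 and Sqle were not among them. The 250 bases before the annotated start site are printed for the 4 genes of the 6 with the largest difference between the genotype ratios of the 2 diets (Cyp51, Msmo1, Nsdhl and Dhcr7) and for the gene with the smallest (Sc5d). For Dhcr7, which has 3 annotated starts, the start with the most matches is shown. Sequences run 5' to 3' on the gene's strand, and capitals mark matches to CCAAT (NF-Y), GGGCGG (Sp1) or CACGTG (E-box) on either strand. The GGG that ends Sc5d is the first part of a match that crosses the start.
Cyp51 (chr5:4104698-4104947, minus strand): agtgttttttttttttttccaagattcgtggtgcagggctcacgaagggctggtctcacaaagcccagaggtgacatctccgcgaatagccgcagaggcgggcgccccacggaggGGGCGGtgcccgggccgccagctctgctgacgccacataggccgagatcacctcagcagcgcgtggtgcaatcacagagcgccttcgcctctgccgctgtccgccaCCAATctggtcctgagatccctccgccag
Msmo1 (chr8:64733579-64733828, minus strand): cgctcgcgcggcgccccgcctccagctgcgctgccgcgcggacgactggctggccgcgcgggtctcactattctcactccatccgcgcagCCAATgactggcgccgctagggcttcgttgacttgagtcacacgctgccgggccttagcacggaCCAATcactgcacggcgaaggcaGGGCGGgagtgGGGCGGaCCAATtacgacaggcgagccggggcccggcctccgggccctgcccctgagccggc
Nsdhl (chrX:72918271-72918520, plus strand): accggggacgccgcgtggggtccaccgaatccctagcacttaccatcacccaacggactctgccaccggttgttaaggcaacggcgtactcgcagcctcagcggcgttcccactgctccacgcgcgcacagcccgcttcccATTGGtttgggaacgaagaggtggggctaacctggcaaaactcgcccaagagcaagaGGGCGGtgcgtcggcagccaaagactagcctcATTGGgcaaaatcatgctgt
Dhcr7 (chr7:143829964-143830213, plus strand): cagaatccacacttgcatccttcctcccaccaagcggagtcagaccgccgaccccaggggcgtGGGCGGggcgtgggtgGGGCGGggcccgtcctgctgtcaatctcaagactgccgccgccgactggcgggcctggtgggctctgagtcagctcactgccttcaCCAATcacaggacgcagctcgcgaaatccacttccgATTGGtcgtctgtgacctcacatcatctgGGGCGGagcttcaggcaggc
Sc5d (chr9:42264301-42264550, minus strand): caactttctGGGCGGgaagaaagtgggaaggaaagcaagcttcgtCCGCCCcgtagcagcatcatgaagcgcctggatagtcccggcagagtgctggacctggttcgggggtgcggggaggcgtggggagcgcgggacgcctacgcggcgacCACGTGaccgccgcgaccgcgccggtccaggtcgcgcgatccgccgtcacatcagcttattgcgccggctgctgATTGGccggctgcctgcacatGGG

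The letters CCAAT, read on both strands, occurred within 250 bases before to 50 bases after the start in 6 of the 6 genes, against 41.1% of all 27025 genes, and in 6 of their 8 windows, against 37.4% of all 32851 promoters of that length. GGGCGG occurred in 6 of 6 genes (38.2% of all genes) and 7 of 8 windows (35.7% of promoters). CACGTG occurred in Sc5d and Dhcr7, 2 of 6 genes (8.09% of all genes) and 2 of 8 windows (7.15% of promoters). TCACNCCAC, a spelling of the sterol regulatory element, was in none of the 6 genes or 8 windows, against 1.44% of genes and 1.24% of promoters. That says only that these letters are not in the windows searched. Nsdhl had 4 CCAAT matches and Msmo1 had 3, one of which began 55 bases before the start and directly followed a GGGCGG separated from it by 1 base. Cyp51, Lss and Sc5d had 1 each. No match overlapped a match to another motif. These are descriptions of letters, not of bound sites, and a gene counted once if any of its starts had a match.

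**Figure D1:**
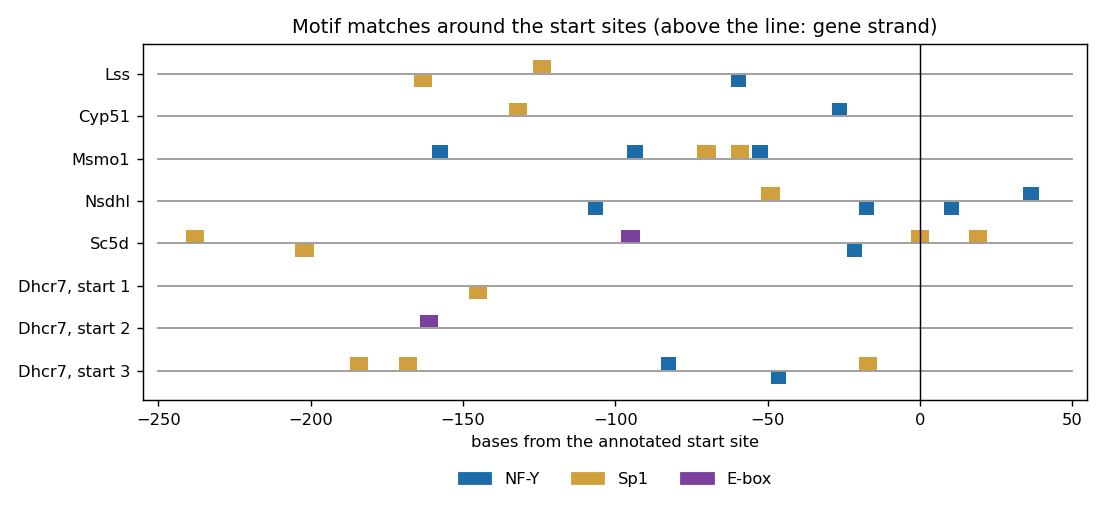
Position of CCAAT (NF-Y), GGGCGG (Sp1) and CACGTG (E-box) matches from 250 bases before to 50 bases after each annotated start site of 6 genes, in bases from the start; boxes above a line are on the gene's strand and boxes below it on the other. Dhcr7 has 3 annotated starts, of which the last holds both CCAAT and GGGCGG.

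Fdft1 encodes squalene synthase, which joins 2 molecules of farnesyl diphosphate and so makes the first sterol-specific intermediate. In wild-type liver its signal was 269.4 on ND but 441.3 on FD, and in HSL-null liver it was 268.7 on ND but 211.0 on FD. The wild-type FD pool stood above the other 3, and the ND pools of the genotypes were level. Log2 ratios were 0.71 for diet in wild type, -0.35 for diet in HSL-null liver and -1.06 for genotype on FD. Fdft1 was the only one of the 8 not higher in HSL-null liver on ND, at 0.00, or 0.13 after median scaling, in which all arrays were set to a common median.

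Sqle encodes squalene epoxidase, which adds the first oxygen and is a rate-limiting step of the later route. Wild-type liver measured 186.3 on ND and 258.4 on FD, and HSL-null liver 283.2 and 72.9. The HSL-null FD pool was far below the other 3, while the wild-type FD and HSL-null ND pools differed by only 0.13 on the log2 scale. High-fat feeding went with a 1.39-fold higher signal in wild type and a 3.88-fold lower signal in HSL-null liver. Only 3 of the 4829 genes had a lower diet ratio in HSL-null liver.

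Lss encodes lanosterol synthase, which folds oxidosqualene into the 4-ring lanosterol. The wild-type signals were 74.7 on ND and 92.2 on FD, and the HSL-null signals 90.9 and 47.7. The first 3 pools lay close together, with neighbours 0.020 and 0.28 apart on the log2 scale, within the probe set SD. The HSL-null FD pool lay 0.65 below the next.

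Cyp51, Msmo1 and Nsdhl act in series to strip the extra methyl groups from lanosterol. Cyp51, the lanosterol 14-alpha-demethylase and a cytochrome P450, had wild-type signals of 32.0 on ND and 80.5 on FD and HSL-null signals of 55.9 and 28.1. Its mean signal was the closest of the members to the filter, and adding a pseudocount of 16 to every signal in place of the floor moved its FD genotype ratio from -1.52 to -1.13. Wild type on FD was highest, HSL-null on ND came next, and the other 2 pools were within the probe set SD of each other. Its wild-type diet difference was 2.52-fold.

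Msmo1, the C4-methyl sterol oxidase, had a wild-type signal of 117.8 on ND and 335.7 on FD, against 184.9 and 133.1 in HSL-null liver. It was the only member lowest in wild type on ND rather than in HSL-null on FD, and those 2 pools differed by 0.18, within the probe set SD. The wild-type diet difference, 2.85-fold higher on FD, was the largest of the 8, and 9 of 4829 genes ranked higher. The HSL-null diet difference was 1.39-fold lower.

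Nsdhl encodes the sterol dehydrogenase that removes the oxidised C4 carbon, and it was read by 3 probe sets. The brightest, 98631_g_at, had wild-type signals of 198.5 on ND and 343.1 on FD and HSL-null signals of 257.2 and 121.2. The next, 93868_at, had wild-type signals of 110.9 and 234.0 and HSL-null signals of 173.3 and 79.9. At the dimmest, 98630_at, wild type measured 99.1 and 111.1, and HSL-null liver 102.9 and 65.9. All 3 ranked the pools alike, from wild type on FD through HSL-null on ND and wild type on ND to HSL-null on FD. They disagreed in size. The genotype ratio on FD was -1.50, -1.55 and -0.75, and the difference between diets was -1.87, -2.19 and -0.81. At the dimmest, 3 pools lay within the probe set SD of their neighbours and HSL-null on FD stood 0.59 below them.

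Sc5d and Dhcr7 act near the end of the route, as the desaturase that adds the C5 double bond and the reductase that removes the C7 one. At its brightest probe set, 102768_i_at, Sc5d had wild-type signals of 335.6 on ND and 381.1 on FD and HSL-null signals of 441.8 and 306.5. The other, 102769_f_at, had wild-type signals of 283.3 and 335.9 and HSL-null signals of 305.8 and 210.8. Letters before _at, as here and at 98631_g_at, mark probe sets that were not built by the usual rules for unique probes. The order of the top 2 pools differed between the probe sets, and the genotype ratio on FD was -0.31 and -0.67. Neighbouring pools at 102768_i_at differed by less than the probe set SD, so only pools further apart in the order can be told apart by that yardstick.

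Dhcr7, 7-dehydrocholesterol reductase, had wild-type signals of 77.3 on ND and 104.6 on FD, and HSL-null signals of 112.7 and 45.7. Like Sqle, it had HSL-null on ND at the top, level with wild type on FD at 0.11 on the log2 scale, and HSL-null on FD well below the rest. Its diet difference was 2.47-fold lower in HSL-null liver and 1.35-fold higher in wild type.

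**Figure D2:**
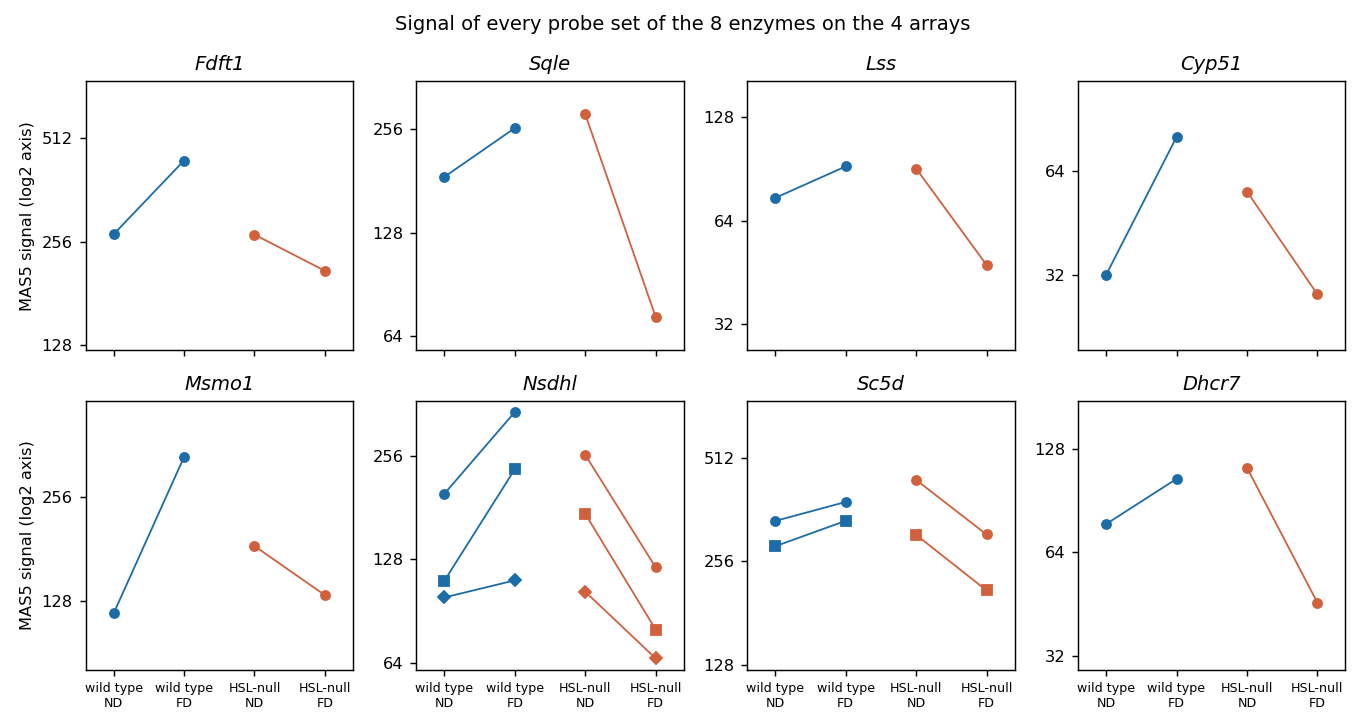
MAS5 signal (log2 axis) of each probe set on the 4 arrays, with wild type in blue and HSL-null in orange; lines join the 2 diets of 1 genotype, and circles, squares and diamonds are the probe sets of a gene from brightest to dimmest. Every blue line goes up from ND to FD and every orange line goes down, the orange lines most steeply for Sqle and Dhcr7 and least for Fdft1 (-0.35).

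The first comparison was between genotypes on the normal diet. Most were modestly higher in HSL-null liver. The 8 genes, each by its brightest probe set, had a median log2 ratio of 0.47, from 0.00 for Fdft1 to 0.80 for Cyp51, against -0.018 over all 4829 genes. Of the 8, 7 lay above 0 (47.3% of all genes did). Higher by at least the probe set SD were 6 (11.4% of all genes), or 5 by the mean of all probe sets of a gene. None reached 2-fold in either direction, where 0.497% of all genes were 2-fold or more higher and 1.08% lower. After median scaling these shares were 0.622 and 0.746%. On the same 2 arrays the 4 kept exocrine pancreas markers were all 2-fold or more lower in HSL-null liver, with a median of -1.86, and 3 kept lymphocyte markers had a median of -0.95. The hepatocyte marker median was -0.26. The part of these markers in the ND result was not tested.

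On the high-fat diet the direction was the opposite, and all 8 genes were lower in HSL-null liver. The median log2 ratio was -1.26 against 0.067 over all genes, with a range from -1.83 for Sqle to -0.31 for Sc5d. Fdft1, Sqle, Cyp51, Msmo1, Nsdhl and Dhcr7 were 2-fold or more lower, which is 6 of 8, where 0.953% of all genes were (1.49% after median scaling). None was 2-fold higher, where 1.86% of all genes were (1.06% after median scaling). Lss was close to that fold, at 1.93-fold lower. The count of enzymes 2-fold or more lower became 7 of 8 under quantile, median and cyclic loess scaling, with Lss included. It became 5 of 8 with a pseudocount of 16, where Dhcr7 fell to -0.97, and 4 of 5 with a stricter filter at 97.1. At the main settings all 8 were lower by more than the probe set SD, as 14% of all genes were. By any amount, 41.5% of all genes were lower. The markers of hepatocytes, set beside this, had a median of -0.0091 over 8 genes on the same 2 arrays. The summed hepatocyte marker signal was 23300 in wild type and 23341 in HSL-null on FD. Exocrine pancreas markers (4 of 8 kept) had -0.14, Kupffer cell markers (7 of 8) 0.14, endothelial markers (3 of 6) 0.30, lymphocyte markers (3 of 8, with Cd2 under the floor on all arrays) 0.60, and stellate cell and matrix markers (6 of 8) 0.61.

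High-fat feeding went with opposite differences in the 2 genotypes. In wild type, 8 of 8 genes were higher on FD, with a median of 0.59 against -0.047 over all genes, 44% of which were higher. In 7 of the 8, all but Sc5d, the difference was at least the probe set SD (17.2% of all genes). Cyp51 and Msmo1 were 2-fold or more higher, 2 of 8 against 0.787% of all genes (1.26% after median scaling), and none was 2-fold lower, where 2.36% were (1.53% after median scaling). In HSL-null liver, 8 of 8 were lower on FD, with a median of -0.96 against 0.041 over all genes, 42.8% of which were lower. In all 8 the difference was at least the probe set SD (8.49% of all genes). Sqle, Nsdhl and Dhcr7 were 2-fold or more lower, 3 of 8 against 0.621% of all genes (0.994% after median scaling), and none was 2-fold higher, where 0.828% were (0.456% after median scaling). Hepatocyte markers had medians of -0.36 for diet in wild type and -0.19 in HSL-null liver. Their summed signal was 31353 on ND against 23300 on FD in wild type, where the enzymes were higher on FD, and 26655 against 23341 in HSL-null liver. Exocrine pancreas markers had medians of -1.71 in wild type, with 3 of 4 2-fold or more lower on FD, and of -0.13 in HSL-null liver. Lymphocyte markers had -0.89 and 0.58. The part of these markers in the diet results was not tested. For diet in HSL-null liver, Cyp51 at -0.99 and Lss at -0.93 lay close to the 2-fold line. The count of enzymes 2-fold or more lower there on FD therefore became 5 of 8 under each of the other 3 scalings (quantile, median and cyclic loess). It became 2 of 8 with a pseudocount of 16 and with the mean of all probe sets of a gene. The diet and genotype comparisons use the same 4 arrays, so they are not separate evidence.

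**Figure D3:**
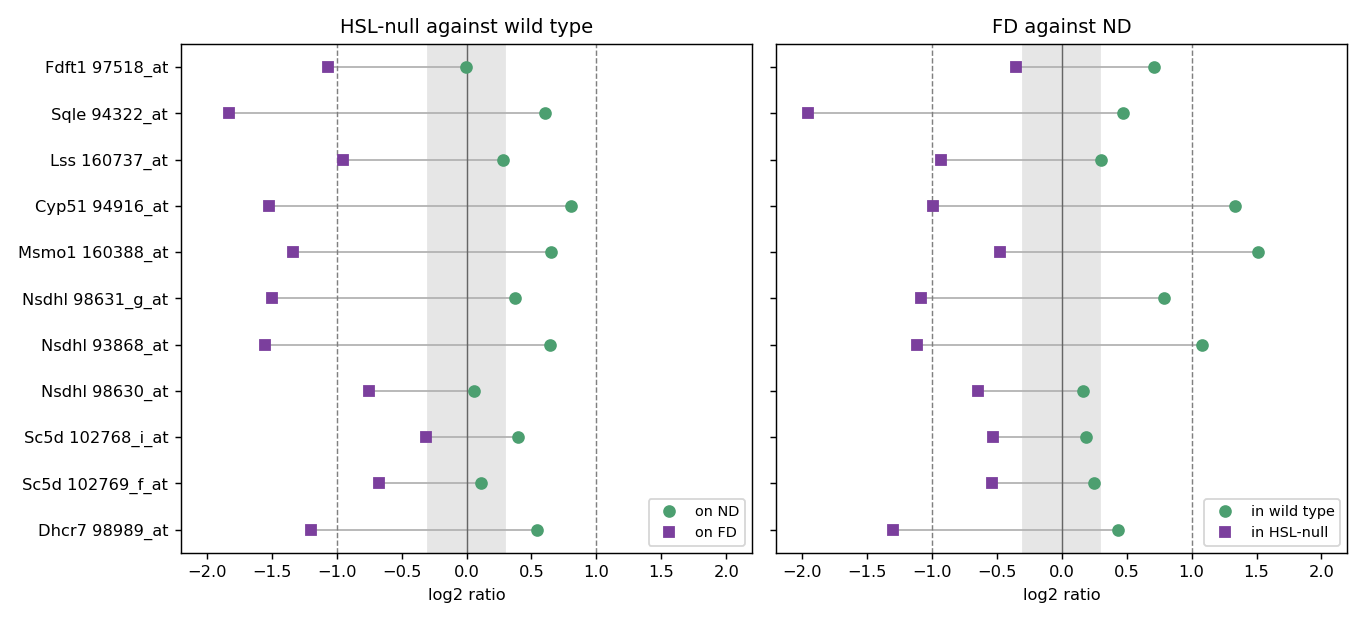
Log2 ratios of the 11 probe sets for HSL-null against wild type (left; circles on ND, squares on FD) and for FD against ND (right; circles in wild type, squares in HSL-null). The grey band is the probe set SD of 0.298 and dashed lines are 2-fold; on the left all squares lie below 0, and on the right all circles lie above 0 and all squares below it.

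The difference between the genotype ratios of the 2 diets sums up this reversal, from ratios that share no array. Its median over the 8 genes was -1.81 against 0.092 over all genes. In 7 of 8 genes, all but Sc5d at -0.71, the difference was 2-fold or more downward, against 1.39% of all genes. After median scaling 4.37% of all genes had such a difference, and Sc5d had one too, at -1.01. None of the 8 had one of 2-fold or more upward, where 4.93% of all genes did (2.36% after median scaling). Ranked from the most negative of 4829 genes, Sqle was in place 4, Cyp51 in place 5, Msmo1 in place 9, Nsdhl in place 14 and Dhcr7 in place 16. Lss followed in place 45, Fdft1 in place 57 and Sc5d in place 200. Mvd, an enzyme of the mevalonate stretch of the route, was in place 2. In 6 of the 8 genes HSL-null liver was above wild type on ND and below it on FD, each by at least the probe set SD, which held for 1.74% of all genes. Sc5d was among the 6 only by its brightest probe set, since its ND ratio at 102769_f_at was 0.11. Nsdhl would not be among them by 98630_at, where its ND ratio was 0.054. The 4 exocrine pancreas markers had a median difference of 1.58, all 4 being 2-fold or more upward.

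**Figure D4:**
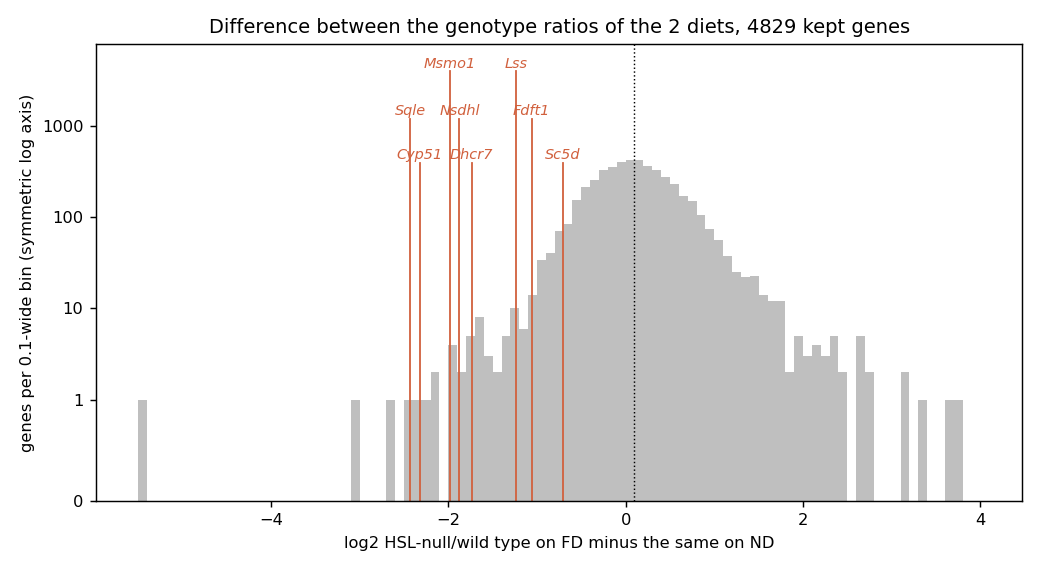
Histogram of the difference between the log2 genotype ratio on FD and that on ND over the 4829 kept genes (grey, symmetric log axis) with the 8 enzymes as vertical lines and the median of all genes, 0.092, dotted. All 8 lines lie on the negative side, from -2.43 for Sqle to -0.71 for Sc5d.

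The members were alike in direction and unlike in which pool stood apart. In Msmo1 the wild-type diet difference was larger in size than the HSL-null one by 1.04 on the log2 scale, and in Fdft1 and Cyp51 by 0.36 and 0.34. In Sqle the HSL-null difference was larger by 1.49, in Dhcr7 by 0.87 and in Lss by 0.63. Nsdhl and Sc5d leaned the same way, by 0.30 and 0.34, but at 93868_at of Nsdhl the sizes were 1.08 and 1.12. With an SD of 0.298 on each ratio, the smaller of these contrasts are not beyond measurement error. HSL-null on FD was the lowest of the 4 arrays at 10 of the 11 probe sets. By the brightest probe set it was lowest in every gene of the 8 but Msmo1, where 19.9% of all genes had that array lowest. Wild type on FD was at the same time the highest at 7 of 11, or in 4 of the 8 genes by the brightest probe set, against 8.64% of all genes.

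Other genes of the pathway came from lists that were written down with earlier results of these data known. Of the 9 listed enzymes of the mevalonate and isoprenoid stretch, 5 were kept. Their median was 0.21 on ND and -1.69 on FD for HSL-null against wild type. Mvd (-2.30), Idi1 (-1.84) and Fdps (-1.69), which make and join the isoprenoid units that feed Fdft1, were 2-fold or more lower on FD. The Mvd ratio came from low signals, 58.1 in wild type and 11.8 in HSL-null liver. Hmgcs1, which makes the HMG-CoA that enters the mevalonate route, was 0.80 higher on ND and -0.10 on FD. Mvk, mevalonate kinase, had -0.18 on FD at its kept probe set, and -1.95 at another under the filter where wild type measured 15.0 on ND and 52.5 on FD, and HSL-null liver 26.1 and 13.6.

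Between lanosterol and cholesterol, 5 of 6 further listed genes were kept, with a median genotype ratio of 0.089 on ND and of -0.56 on FD, and 1 was 2-fold or more lower on FD. Tm7sf2, a C14 sterol reductase, had -1.74 on FD and -1.08 at its other probe set. Ebp, the sterol isomerase that acts before Sc5d, had -0.89, and Hsd17b7, which works with Nsdhl in C4 demethylation, had -0.56. Lbr, which has the same reductase activity as Tm7sf2 but also anchors chromatin at the nuclear envelope, had 0.074, or -0.062 to -0.093 under the other scalings. Erg28, a scaffold of the demethylation enzymes, had 0.23. Cyb5a and Cyb5r3, which pass electrons to Msmo1 and Sc5d, had 0.18 and -0.39 on FD, and neither was 2-fold different in any comparison.

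Of the listed regulators 2 were kept, and their median genotype ratio of 0.14 on FD was -0.031 after median scaling. Srebf1, which encodes the SREBP-1 proteins, had log2 genotype ratios of -0.20 on ND and 0.25 on FD. Its diet ratio was 0.094 in wild type and 0.55 in HSL-null liver (0.39 to 0.63 under the other scalings), where the enzymes were lower on FD. For genotype on ND and FD, Mbtps1, a protease that releases SREBPs, had -0.16 and 0.021. Insig1, a sterol-regulated inhibitor of SREBP release, was at or under the floor on all 4 arrays and gives no ratio. Srebf2 was not analysed here. Of the 11 listed genes of sterol efflux, esterification and bile acid entry, 4 were kept, none of them an esterification enzyme. Their median genotype ratio was -0.24 on ND and 0.32 on FD, signs opposite to those of the 8 enzymes. The medians over all kept genes, -0.018 and 0.067, had these signs too. After median scaling the 4 genes had -0.11 and 0.15, within the probe set SD. Abca1, which exports cholesterol from cells, had wild-type signals of 366.1 on ND and 240.9 on FD and HSL-null signals of 324.0 and 463.1. It was thus lowest in wild type on FD and highest in HSL-null on FD, with a genotype ratio of 0.94 on FD and 0.64 at its other probe set. Abcg1 had 0.35 and Cyp7a1, the rate-limiting enzyme of bile acid synthesis, 0.29, while Nr1h3, which encodes the sterol-activated receptor LXR-alpha, had -0.28.

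**Figure D5:**
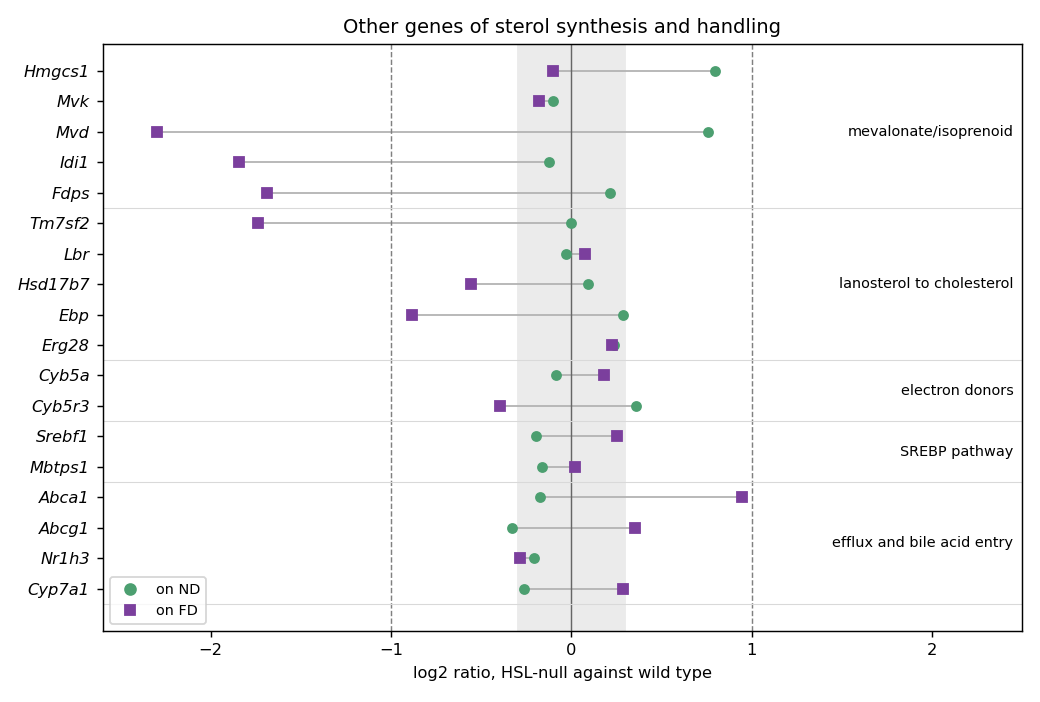
Log2 genotype ratio (HSL-null over wild type) on ND (circles) and FD (squares) for the kept genes of the 5 lists, each by its brightest probe set, with the probe set SD of 0.298 in grey and 2-fold as dashed lines. The squares of Mvd, Idi1, Fdps and Tm7sf2 lie beyond 2-fold on the low side, and that of Abca1, at 0.94, is just short of it on the high side.

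The genes whose pattern over the 4 arrays was most like that of the 8 enzymes were found by the distance between log2 profiles, each centred on its own mean, and the median profile of the 8. Over 4 arrays this is a loose criterion, and the median distance of the 4818 other genes above the floor was 1.03. H3c14, a histone H3 gene read by a suffix probe set, lay at 0.12, followed by Prkag1, a regulatory subunit of AMP-activated kinase, at 0.17 and the glutathione transferase gene Gstm6 at 0.21. Dmap1, Ropn1l, Golga3, Psapl1, Cxcl9, St7 and Snrpb2 followed at 0.23 to 0.30. The 8 enzymes themselves lay at 0.20 for Nsdhl to 0.76 for Sqle from their own median profile, so likeness to that profile does not single out the pathway.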

How the data were processed

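Liver RNA pools were hybridised to 4 Affymetrix MG_U74Av2 arrays, 1 per group. The deposited table gives each probe set an intensity on every array, linear in scale and made by the authors with MAS5 per the submitters' processing notes, which name no version. The 2% trimmed mean was 100.1 on each array. The authors' other files hold run settings only. They name 1 chip lot, 1 scan day, 2 solution lots and 4 fluidics modules. Detection calls were not used.

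Of 12422 non-control probe sets, 10833 had 1 gene in the platform annotation, 396 several and 1193 none, and only the first were named. Gene identifiers of 10817 matched the RefSeq table of GRCm38.p6, which changed 0 symbols. The floor of 6.1 is the 25th percentile of all signals, and the filter of 26.9 the median of the probe set means. It left 5615 probe sets of 1 gene, and each of the 4829 genes was read by its brightest. A gene counted as different at 2-fold. Ratios were computed with Python 3.11.15 and cyclic loess with limma 3.58.1 in R 4.3.3, and the functions were tested on simulated data. With 1 array per group the number of arrays limits the precision, and no p-value is given.

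The text names all members, up to 4 genes of each list with the largest ratios, and the 10 genes nearest in profile. Mvk and Lbr were named beyond that rule after their values were seen, to account for all 5 kept genes of their lists. Members, lists and rules were chosen with earlier results of these data known.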

Additional observations from a re-analysis of the deposited data

Results flagged for a closer look

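Members are listed here because the same contrast pointed opposite ways in 2 groups, each by at least the probe set SD. With 1 pool per group these differences were not tested. For genotype, which was higher in HSL-null liver on ND and lower on FD, the log2 ratio on FD less that on ND was -2.43 for Sqle, -2.32 for Cyp51, -1.99 for Msmo1, -1.87 for Nsdhl, -1.74 for Dhcr7 and -0.71 for Sc5d. The same arithmetic gives the diet contrast, which was higher on FD in wild type and lower on FD in HSL-null liver. There Sqle, Cyp51, Msmo1, Nsdhl and Dhcr7 have the values just given, and Lss (-1.23) and Fdft1 (-1.06) join them. Sc5d is listed for genotype only by its brightest probe set, since its ND ratio at 102769_f_at was 0.11. Nsdhl would be listed for neither contrast by 98630_at, where its ND genotype ratio was 0.054 and its wild-type diet ratio 0.16.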

How the results depend on the processing

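No paired analysis was possible because each group had 1 array. The median log2 ratio of the members kept its direction under all 9 alternatives for scaling, floor, filter and probe set choice. Among these, a floor raised to the median signal, 26.7, and dropping the filter could not alter it. All 11 probe sets had passed the filter, and their lowest signal was 28.1. The median log2 ratio ranged from 0.40 to 0.60 for genotype on ND and from -1.43 to -1.07 for genotype on FD. For diet it ranged from 0.56 to 0.73 in wild type and from -1.12 to -0.53 in HSL-null liver. For the difference between diets it ranged from -2.10 to -1.57. The value of -0.53 came from the stricter filter at 97.1, which kept 5 of the 8 members and left 1 member 2-fold or more higher on FD in wild type. The share of all genes past 1.5-fold was not counted, so member counts at that threshold have no background beside them. At a 1.5-fold threshold, genotype on ND had 3 members higher, 4 were higher on FD in wild type and 5 were lower on FD in HSL-null liver. The last count, 3 at 2-fold, was also 5 under each of the 3 other scalings, quantile, median and cyclic loess, and 2 with a pseudocount of 16, with the mean of all probe sets of a gene and with the stricter filter. Of 272 single-gene values, 1 changed sign, Fdft1 for genotype on ND under median scaling. Many of the 272 could not move, so that count says little about stability. The raised floor and both filter changes left every single-gene ratio as it was. For genes with 1 probe set, so did the mean of all probe sets and leaving out suffix probe sets. With median scaling the all-gene median moved by 0.13 and -0.17 for genotype on ND and FD and by 0.14 and -0.16 for diet in wild type and HSL-null liver. Low signal limited Cyp51, whose signals of 28.1 and 32.0 lay near the array medians and whose ratios moved from -1.52 to -1.13 for genotype on FD and from 1.33 to 1.01 for diet in wild type with a pseudocount of 16. Array-wide error and variation between animals were not measured.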
